A study of Mus musculus with 12 samples.

Results

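The genes described here encode the subunits of the mitochondrial respiratory chain and ATP synthase, and the complex I assembly factors that share their gene symbols. They are the genes whose single annotated symbol begins with Nduf, Uqcr, Cox4 to Cox8 or Atp5, or is Sdha, Sdhb, Sdhc or Sdhd. The rule uses names alone, but it was chosen with earlier results of these data known. It fitted 90 of the 18193 genes on the arrays: 34 complex I subunits, 8 complex I assembly factors, 4 subunits of complex II, 8 of complex III, 19 of complex IV and 17 of ATP synthase. Where a gene had several probe sets, the one that varied most between the 12 arrays (by SD) stands for it.

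Transcript levels came from Affymetrix mouse arrays hybridised with RNA of 4 populations of bone marrow progenitors from female C57BL/6 mice aged 4 to 6 weeks, with 3 arrays for each population. All were sorted as lineage-negative, CD117+ and Sca-1- cells, and RNA of 80000 cells of each population was extracted. CD27+ common myeloid progenitors (CMP) and CD27- CMP were the fractions of the CD34+ CD16/32- gate with and without CD27, a member of the tumour necrosis factor receptors. Granulocyte-monocyte progenitors (GMP) carried CD34, CD16/32 and CD27, and megakaryocyte-erythrocyte progenitors (MEP) carried none of them. The labels call the arrays biological replicates without saying whether animals were separate or pooled, so the p-values measure only the spread between these arrays.

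Complex I (NADH dehydrogenase) and complex II (succinate dehydrogenase) pass electrons to ubiquinone, complex III passes them on to cytochrome c, and complex IV (cytochrome c oxidase) gives them to oxygen. Complexes I, III and IV pump protons across the inner mitochondrial membrane, and ATP synthase uses the returning protons to make ATP. All of these genes are nuclear. Developing red cells carry out haem synthesis in mitochondria and lose these organelles as they mature, whereas neutrophils are known for a small mitochondrial mass and a reliance on glycolysis.

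The deposited values are on a log2 scale and each probe set is centred on its median array, so that a value of 0 stands for the median of the 12 arrays and not for absence. Values therefore compare arrays within 1 gene and never levels between genes. A gene was called higher or lower at an adjusted p under 0.05 in limma, with Benjamini-Hochberg adjustment over all 18193 genes. In RNA of sorted bulk cells, fewer cells of a type and less RNA per cell cannot be told apart.

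More respiratory chain genes were lower than higher in CD27+ CMP against CD27- CMP, and likewise in GMP against MEP. In CD27+ against CD27- CMP, 24 of the 90 genes fell and 2 rose, while 64 did not pass the test. That is 26.7% lower, against 10.3% of all genes, and 2.22% higher, against 12.1% of all genes. Between GMP and MEP, 18 genes fell, 1 rose and 71 did not pass the test, while 11.3% of all genes fell and 11.5% rose. Arrays of GMP and MEP with the same replicate number deviated together, and with that number as a block within these groups, an alternative chosen after seeing the data, 23 genes fell and 2 rose. The share of all genes called with this block was not counted, so the shares above are not its background. The median log2 difference of the 90 genes was -0.27 in CD27+ against CD27- CMP and -0.20 in GMP against MEP, and the median of all genes was -0.03 and -0.04 in the same comparisons. With calls set aside, 75 of 90 genes lay below 0 in CD27+ against CD27- CMP and 71 of 90 in GMP against MEP. All 3 CD27+ CMP arrays lay below all 3 CD27- CMP arrays for 42 of the 90 genes, against 3256 of all 18193 genes (17.9%). All 3 GMP arrays lay below all 3 MEP arrays for 31 of the 90, against 4672 of all 18193 genes (25.7%).

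**Figure D1:**
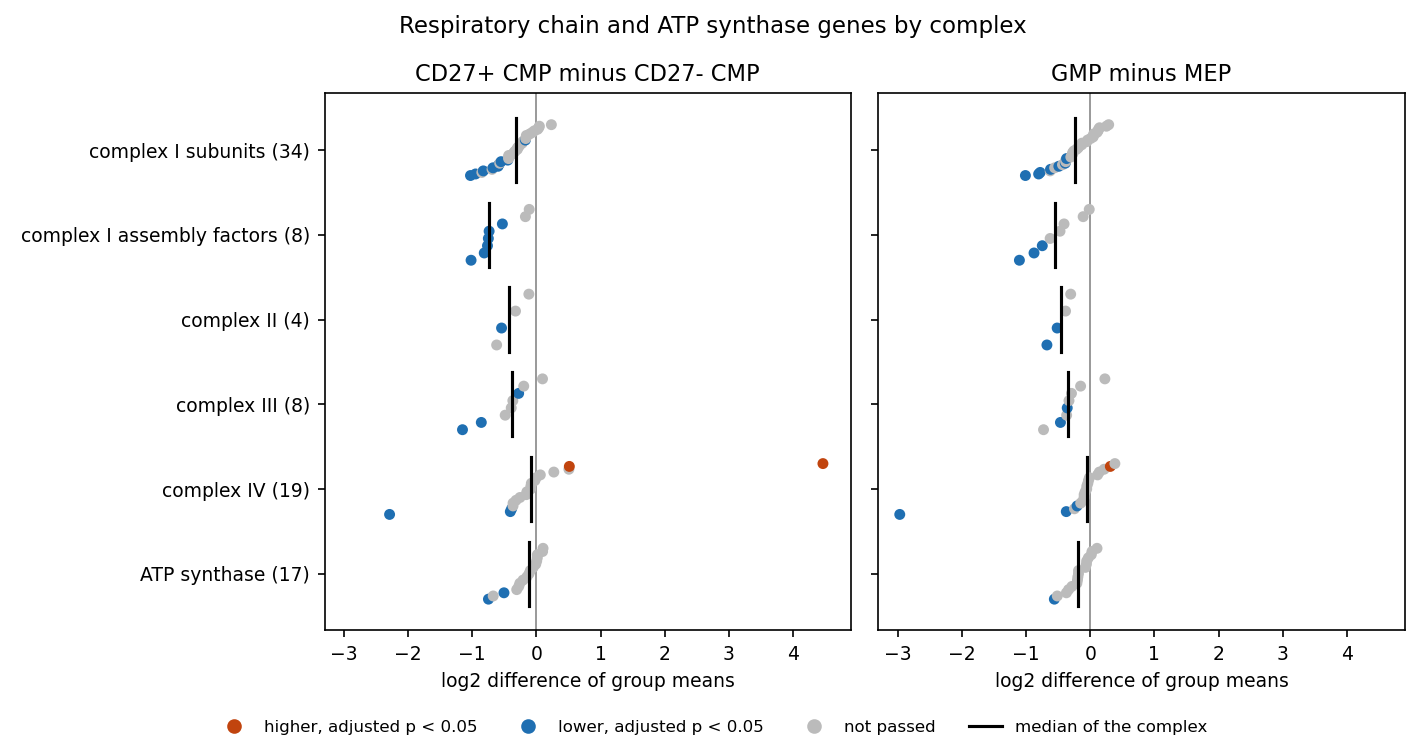
Log2 difference of group means for each of the 90 genes (points), by complex, in CD27+ CMP minus CD27- CMP (left) and GMP minus MEP (right); colours give the limma call at an adjusted p under 0.05 and black bars the median of each complex. The assembly factors of complex I have the lowest medians, -0.74 and -0.55, and Cox6a2 at 4.46 and Cox6b2 at -2.29 and -2.97 lie far from the other genes.

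The complexes differed in how far their genes moved. The 8 complex I assembly factors had medians of -0.74 in CD27+ against CD27- CMP and -0.55 in GMP against MEP, with 6 and 3 genes lower. Of the 34 complex I subunits, 9 and 7 were lower, with medians of -0.31 and -0.23. Complex II had medians of -0.43 and -0.45 with 1 and 2 of 4 genes lower, and complex III had medians of -0.38 and -0.34 with 3 and 2 of 8 genes lower. In complex IV 3 of 19 genes were lower in each comparison, with medians of -0.09 and -0.06. Its 10 general isoforms or single genes had medians of -0.21 and -0.10, and its 8 tissue isoforms or paralogues -0.05 and -0.03. Some of those 8 were flat on all arrays, such as Cox7b2 (range 0.09) and Ndufa4l2 (range 0.05). ATP synthase had 2 and 1 of 17 genes lower, with medians of -0.11 and -0.18. Of all genes, 10.3% and 11.3% were lower in these comparisons. The shares of ATP synthase, 11.8% and 5.88%, were near or below these, and that of complex IV was 15.8% in each. No test was made between complexes, and the number of genes differs between them.

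**Figure D2:**
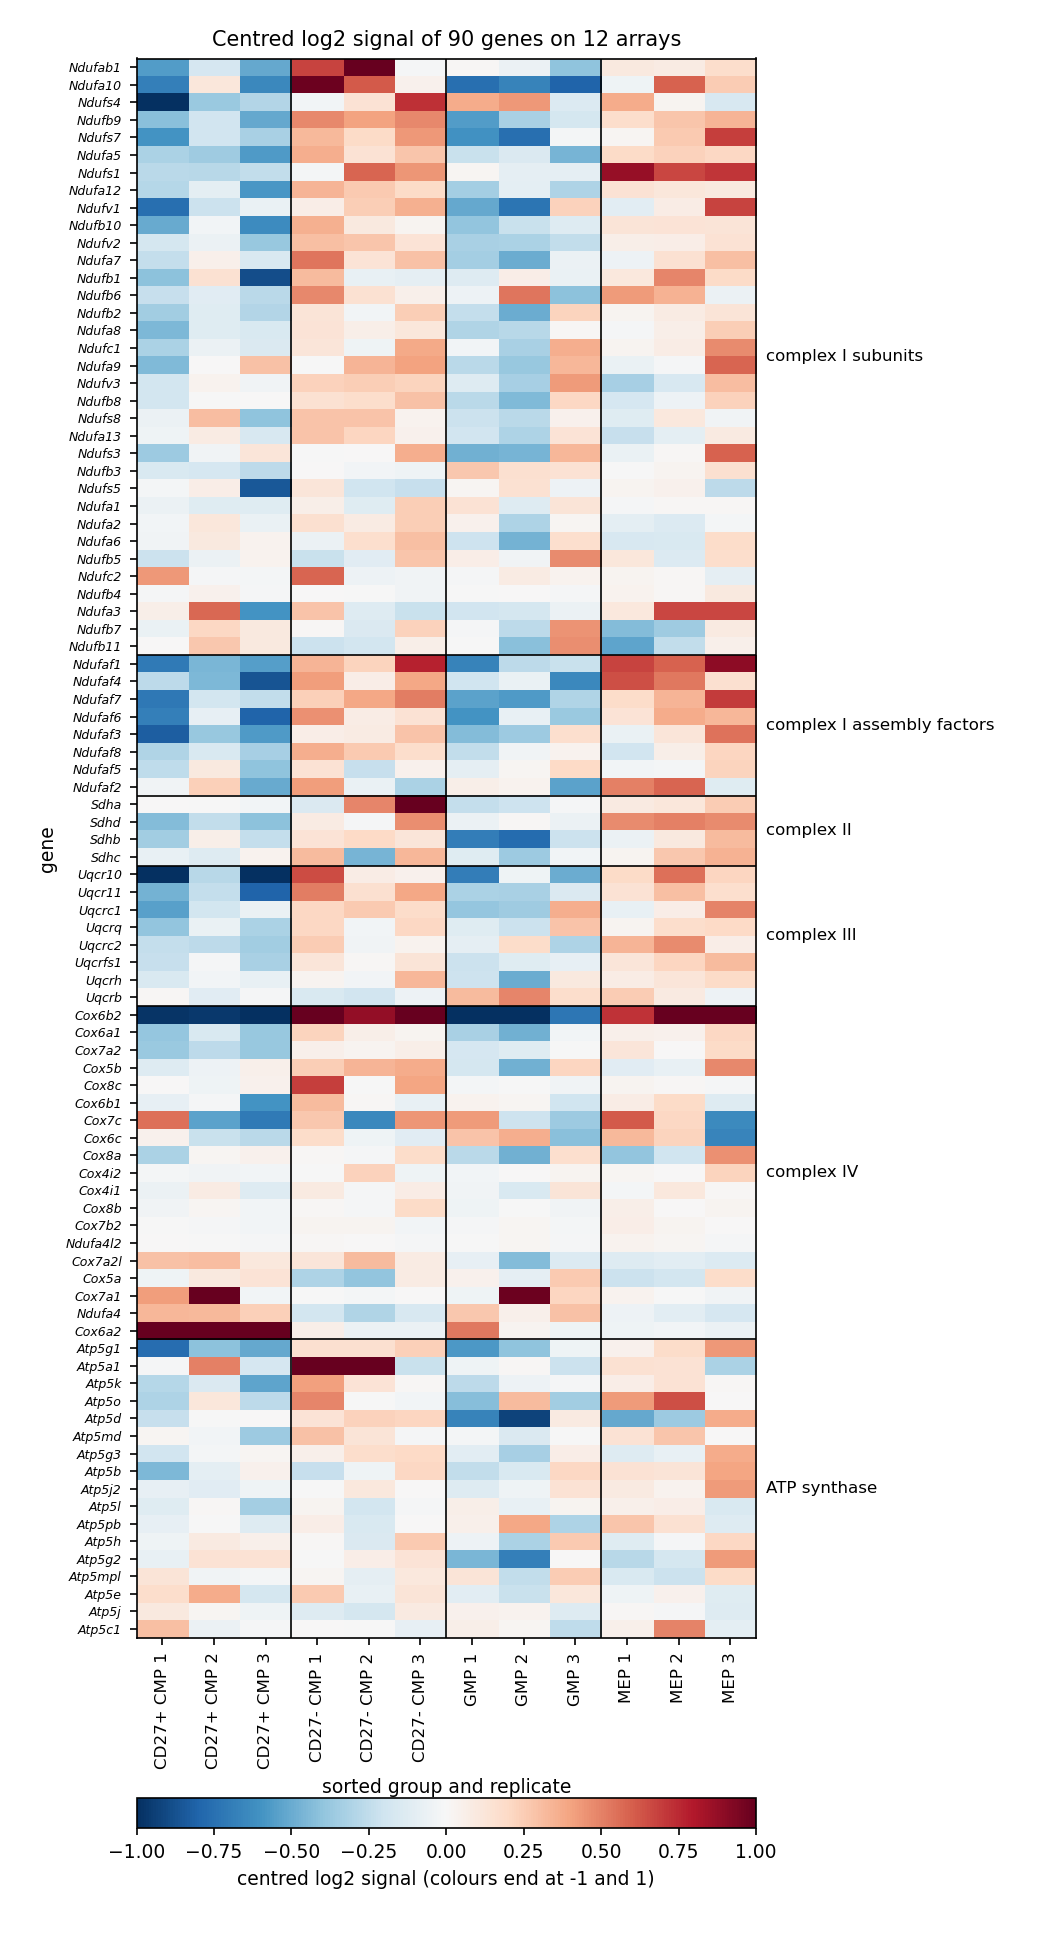
Centred log2 signal of the 90 genes (rows, by complex) on the 12 arrays (columns, 3 for each of CD27+ CMP, CD27- CMP, GMP and MEP); blue is below and red above the median array of each gene, and colours end at -1 and 1. Blue prevails in the CD27+ CMP and GMP columns for complex I, its assembly factors and complex III. An exception is GMP replicate 3, where complex I subunits and complex III had medians of 0.017 and 0.011. Many rows of complex IV and ATP synthase are pale or vary within groups.

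The promoters of 74 of the 90 genes were found in RefSeq (GRCm38.p6), as 300 bases from 250 before to 50 after the transcription start. They were searched on both strands for 4 motifs of factors known to regulate mitochondrial genes: GCGCNTGCG for NRF1, CCGGAAGT for ETS factors such as the GABP complex, AAGATGGCG for YY1 and TCAAGGTCA for ERR alpha. The NRF1 motif was first searched with a C required after it, and the shorter spelling was added after that result was known. With the C, it was in 17 of the 74 members' promoters (23.0%) and in 5.19% of the promoters of all 27025 genes of the table, and it was in 5 of 21 members (23.8%) lower in CD27+ against CD27- CMP and in 12 of 52 (23.1%) not called there. Without the C, it was in 24 of 74 members (32.4%) and in 7.12% of all genes, and in 9 of 21 lower members (42.9%) and 15 of 52 not called (28.8%). The shares of lower genes and of genes not called were thus close with the C and apart without it, and that difference was not tested. The YY1 motif was in 9.46% of members and 1.64% of all promoters, the ETS motif in 6.76% and 4.31%, and the ERR alpha motif in 2.70% and 0.466%. Of the lower genes and those not called, 4.76% and 11.5% held the YY1 motif, 4.76% and 7.69% the ETS motif, and 4.76% and 1.92% the ERR alpha motif. A match is a description of the sequence and not evidence of binding. The promoters of 2 genes that fell and hold the NRF1 motif are shown with that of Cox6b2, which fell more, and that of Ndufa4, which rose. All 4 lie on the minus strand, are written 5′ to 3′ along the gene, and have their motif matches in capitals (NRF1 in the shorter spelling), and the promoters of Cox6b2 and Ndufa4 hold no match to the 4 motifs. They span chr5:115348909-115349208 (Cox6a1), chr9:50603800-50604099 (Sdhd), chr7:4753045-4753344 (Cox6b2) and chr6:11907401-11907700 (Ndufa4). Cox6a1 has NRF1 matches beginning 162, 161 and 116 bases before the start, the first 2 of which overlap on opposite strands. Sdhd has an NRF1 match beginning 78 bases before the start and an ERR alpha match, read on the other strand, after it.
Cox6a1: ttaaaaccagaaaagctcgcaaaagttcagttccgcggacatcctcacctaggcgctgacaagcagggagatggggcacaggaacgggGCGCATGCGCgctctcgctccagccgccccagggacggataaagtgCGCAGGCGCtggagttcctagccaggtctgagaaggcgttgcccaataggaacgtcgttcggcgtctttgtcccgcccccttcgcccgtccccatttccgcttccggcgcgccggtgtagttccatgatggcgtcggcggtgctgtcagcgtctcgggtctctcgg
Sdhd: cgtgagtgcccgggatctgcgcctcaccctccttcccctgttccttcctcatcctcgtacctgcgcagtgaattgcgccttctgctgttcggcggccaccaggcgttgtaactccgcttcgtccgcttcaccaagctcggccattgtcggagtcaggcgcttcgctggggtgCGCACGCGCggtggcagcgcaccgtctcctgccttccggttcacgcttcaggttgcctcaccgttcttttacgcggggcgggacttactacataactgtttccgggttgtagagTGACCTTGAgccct
Cox6b2: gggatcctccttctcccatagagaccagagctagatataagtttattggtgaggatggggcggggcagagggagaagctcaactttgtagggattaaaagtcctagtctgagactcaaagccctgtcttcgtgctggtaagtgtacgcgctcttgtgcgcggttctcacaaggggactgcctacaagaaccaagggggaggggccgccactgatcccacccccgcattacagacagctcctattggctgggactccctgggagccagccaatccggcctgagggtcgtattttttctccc
Ndufa4: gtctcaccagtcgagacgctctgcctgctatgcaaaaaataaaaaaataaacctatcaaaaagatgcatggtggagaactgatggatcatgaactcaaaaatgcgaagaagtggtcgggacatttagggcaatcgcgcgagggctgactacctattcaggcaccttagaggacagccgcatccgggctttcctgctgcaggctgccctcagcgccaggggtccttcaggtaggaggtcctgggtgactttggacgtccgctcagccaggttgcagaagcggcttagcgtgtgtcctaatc

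Complex I subunits called in these comparisons were all lower in CD27+ CMP and GMP. Its matrix arm carries the flavin and the iron-sulphur clusters, held by core subunits conserved from bacteria, and accessory subunits surround that core in both arms. Of the 6 matrix arm core subunits measured, 2 were lower in CD27+ CMP and 3 in GMP. Ndufs1, the core subunit with several iron-sulphur clusters, was at -0.27, -0.27 and -0.24 in CD27+ CMP, against -0.02, 0.58 and 0.44 in CD27- CMP. It was at 0.02, -0.09 and -0.09 in GMP, against 0.87, 0.67 and 0.71 in MEP. The groups did not overlap in either comparison, and MEP was the highest of the 4 groups. The log2 difference was -0.60 (SE 0.13, adjusted p = 0.00926, or 0.0754 when only these groups were fitted) in CD27+ against CD27- CMP and -0.80 (SE 0.13, adjusted p = 0.00157) in GMP against MEP.

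Ndufv2, a core subunit of the NADH-oxidising tip, was at -0.18, -0.06 and -0.38 in CD27+ CMP, against 0.30, 0.28 and 0.14 in CD27- CMP. It was at -0.33, -0.32 and -0.25 in GMP, against 0.06, 0.07 and 0.15 in MEP. The differences were small and even, at -0.45 (SE 0.08, adjusted p = 0.00222) and -0.39 (SE 0.08, adjusted p = 0.00478), with no overlap. Ndufs7, the core subunit next to the ubiquinone site, differed by -0.69 (adjusted p = 0.0534) in CD27+ against CD27- CMP, which did not pass, and by -0.78 (adjusted p = 0.0311) in GMP against MEP, which did. Its second probe set passed in both, at -0.78 (adjusted p = 0.00567 over all probe sets) and -0.80 (adjusted p = 0.00456). Ndufv1, the flavin-binding subunit, differed by -0.57 (95% interval -1.23 to 0.09) and -0.55 (-1.21 to 0.11), Ndufs3 by -0.21 and -0.38, and Ndufs8 by -0.25 and -0.13. These 3 genes did not pass in either comparison by their chosen probe sets. For Ndufv1 the call depended on the probe set: its 2 other probe sets, which varied less between arrays, gave -0.80 and -0.74 in CD27+ against CD27- CMP (adjusted p = 0.00437 and 0.00944 over all probe sets), and both gave -0.47 in GMP against MEP (adjusted p = 0.0646 and 0.0736).

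Among accessory subunits, Ndufb9 of the membrane arm was at -0.42, -0.19 and -0.52 in CD27+ CMP, against 0.48, 0.40 and 0.48 in CD27- CMP. It was at -0.56, -0.32 and -0.18 in GMP, against 0.18, 0.28 and 0.34 in MEP. Its groups were widely apart, by -0.83 (SE 0.11, adjusted p = 0.000336) in CD27+ against CD27- CMP and by -0.62 (SE 0.11, adjusted p = 0.00202) in GMP against MEP. Ndufa5 of the matrix arm was at -0.32, -0.36 and -0.56 in CD27+ CMP, against 0.36, 0.14 and 0.28 in CD27- CMP. It was at -0.22, -0.14 and -0.47 in GMP, against 0.19, 0.23 and 0.21 in MEP. It too fell in both comparisons with no overlap, by 0.68 (SE 0.09, adjusted p = 0.000586) and 0.49 (SE 0.09, adjusted p = 0.00412) on the log2 scale.

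Ndufa12, which the assembly factor Ndufaf2 gives way to late in complex I assembly, fell by 0.59 (SE 0.11, adjusted p = 0.00411) in CD27+ against CD27- CMP and by 0.37 (SE 0.11, adjusted p = 0.042, or 0.0677 with the replicate block) in GMP against MEP on the log2 scale. Ndufa10 of the membrane arm was at -0.68, 0.11 and -0.64 in CD27+ CMP, against 0.98, 0.61 and 0.04 in CD27- CMP, so that these groups overlapped. It was at -0.75, -0.67 and -0.80 in GMP, against -0.04, 0.59 and 0.26 in MEP, which did not overlap. Its differences of -0.95 (adjusted p = 0.038) and -1.01 (adjusted p = 0.0282) passed in both, but its second probe set gave -0.29 and -0.42 and did not pass (adjusted p = 0.309 and 0.105 over all probe sets).

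A further 3 subunits passed in CD27+ against CD27- CMP and not in GMP against MEP. Ndufab1, the mitochondrial acyl carrier protein, was at -0.56, -0.17 and -0.51 in CD27+ CMP, against 0.67, 1.18 and -0.01 in CD27- CMP. The difference was -1.03 (SE 0.26, adjusted p = 0.0185), but the 4 other probe sets of the gene gave -0.54, -0.37, -0.05 and 0.18. Of these, only that at -0.54 passed (adjusted p = 0.00679 over all probe sets), and only that at 0.18 differed in direction. The size of the difference thus depended on the probe set. Ndufb10 of the membrane arm fell by 0.55 (adjusted p = 0.0253). Ndufb3, also of the membrane arm, did not follow the split of CD27+ CMP and GMP from CD27- CMP and MEP. It was at -0.15, -0.17 and -0.26 in CD27+ CMP and 0.00, -0.03 and -0.04 in CD27- CMP. In GMP it was at 0.27, 0.16 and 0.14, and in MEP at 0.00, 0.03 and 0.16. CD27+ CMP was lowest and GMP highest, with differences of -0.38 (SE 0.05, adjusted p = 0.00239) in CD27+ CMP against GMP and -0.17 (adjusted p = 0.0396) in CD27+ against CD27- CMP. The calls of Ndufa10, Ndufab1 and Ndufb10 in CD27+ against CD27- CMP, and that of Ndufb3, were lost when CD27+ CMP replicate 1 or replicate 3 was left out, with the adjusted p reaching 0.145, 0.111, 0.131 and 0.327 over the alternatives. Of 20 alternatives, 10 ended the call of Ndufa10, 4 that of Ndufab1, 5 that of Ndufb10 and 11 that of Ndufb3.

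The assembly factors of complex I, which build the complex and are absent from its mature form, had the largest share of calls among the complexes in CD27+ against CD27- CMP, where 6 of 8 were lower. In GMP against MEP 3 of 8 were lower, a smaller share than the 2 of 4 of complex II. Ndufaf1, which acts on the membrane arm, was at -0.70, -0.46 and -0.55 in CD27+ CMP, against 0.34, 0.22 and 0.77 in CD27- CMP. It was at -0.66, -0.26 and -0.22 in GMP, against 0.68, 0.59 and 0.90 in MEP. No array of CD27+ CMP or GMP reached any array of CD27- CMP or MEP. The differences were -1.02 (SE 0.17, adjusted p = 0.00158) and -1.10 (SE 0.17, adjusted p = 0.000896), 2.02-fold and 2.15-fold lower.

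Ndufaf7, a methyltransferase that modifies a core subunit, was at -0.72, -0.18 and -0.25 in CD27+ CMP, against 0.24, 0.39 and 0.51 in CD27- CMP. It was at -0.54, -0.57 and -0.30 in GMP, against 0.18, 0.34 and 0.70 in MEP. It fell by 0.76 (SE 0.17, adjusted p = 0.0101) and by 0.88 (SE 0.17, adjusted p = 0.00455) on the log2 scale, again without overlap. Ndufaf4 fell by 0.81 (adjusted p = 0.0194) and 0.75 (adjusted p = 0.0284). A second probe set of Ndufaf4 gave -0.575 and -0.574 and did not pass in limma (adjusted p = 0.294 and 0.266 over all probe sets). Both calls of Ndufaf4 were lost when the probe sets of a gene were averaged. Its partner Ndufaf3 fell by 0.74 (adjusted p = 0.0267) in CD27+ against CD27- CMP and differed by -0.41 (adjusted p = 0.198, or 0.0398 with the replicate block) in GMP against MEP.

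Ndufaf8 was at -0.30, -0.15 and -0.33 in CD27+ CMP, against 0.36, 0.27 and 0.18 in CD27- CMP, a difference of -0.53 (SE 0.11, adjusted p = 0.00641). In GMP it was at -0.25, -0.03 and 0.03, against -0.19, 0.06 and 0.21 in MEP, and the groups overlapped. Ndufaf6 differed by -0.75 (adjusted p = 0.0257) and -0.62 (adjusted p = 0.0558). Ndufaf5, which works with Ndufaf8, did not pass at -0.17 and -0.02, nor did Ndufaf2 at -0.11 and -0.47. The calls of Ndufaf3, Ndufaf4 and Ndufaf6 in CD27+ against CD27- CMP were lost without CD27+ CMP replicate 3 or without CD27- CMP replicate 1, and those of Ndufaf3 and Ndufaf6 also without CD27+ CMP replicate 1.

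**Figure D3:**
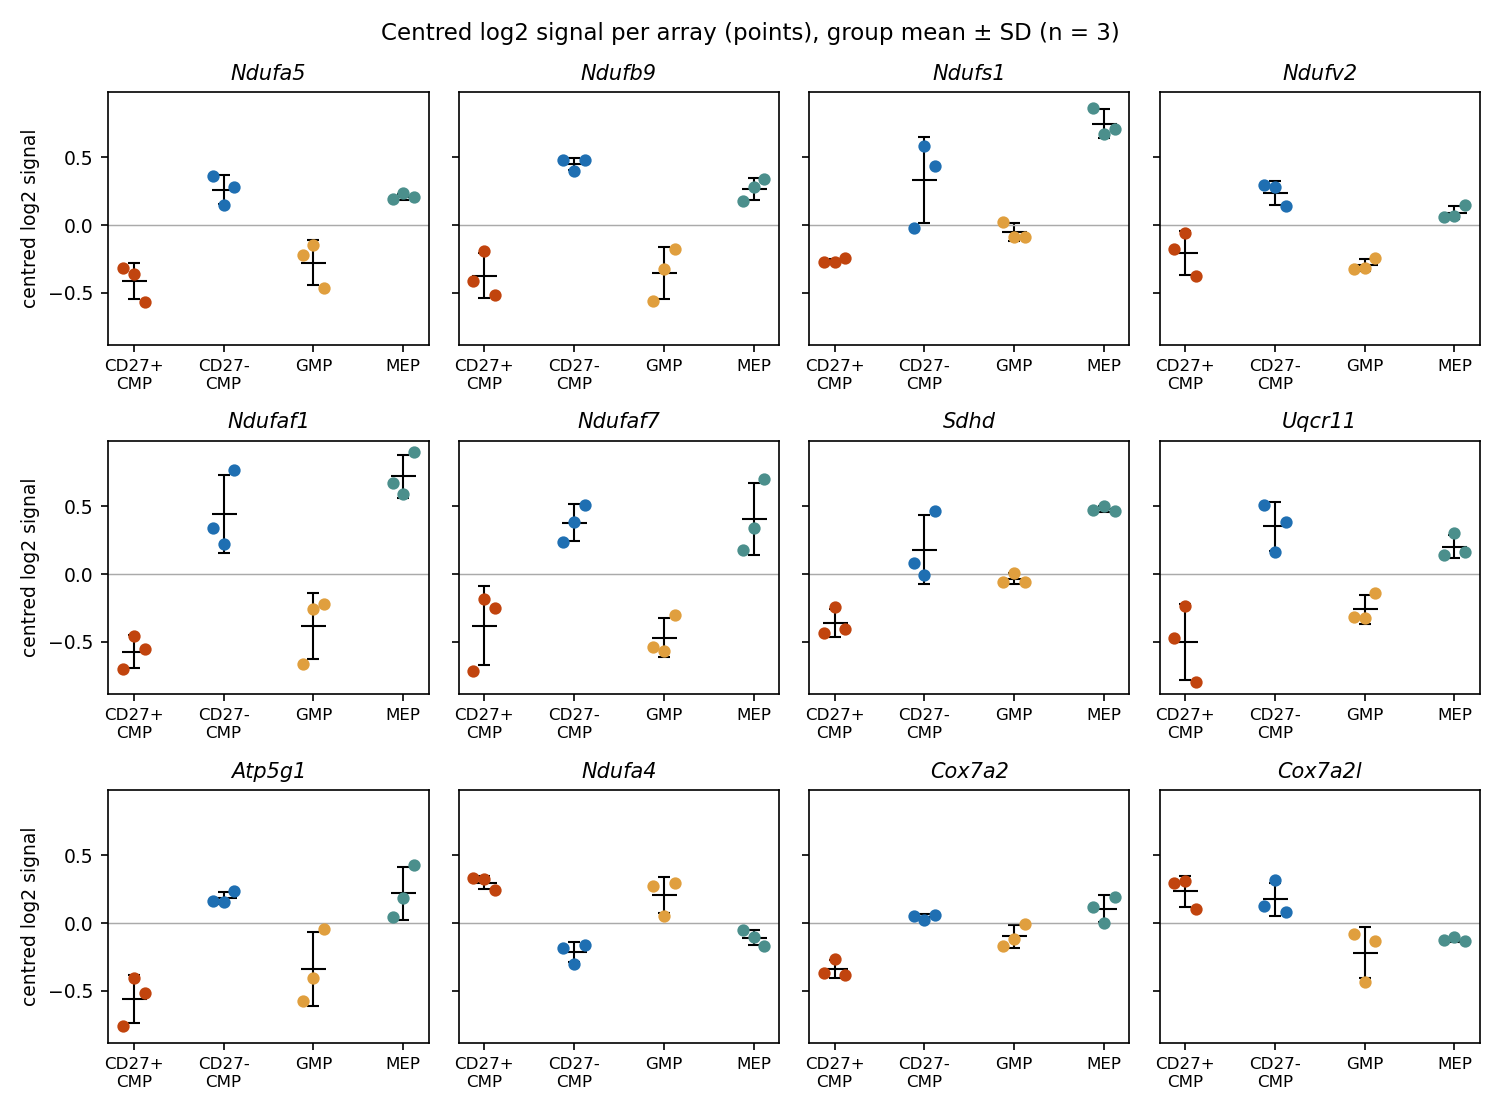
Centred log2 signal on each array (points) with the group mean and SD (bars, n = 3) for 12 genes in CD27+ CMP, CD27- CMP, GMP and MEP. In Ndufa5, Ndufb9, Ndufv2, Ndufaf1, Ndufaf7, Uqcr11 and Atp5g1 the CD27+ CMP and GMP arrays lie below the CD27- CMP and MEP arrays, in Ndufa4 they lie above them, and Cox7a2l is high in both CMP fractions.

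Complex II is both an enzyme of the citric acid cycle and an entry point to the chain. Sdhd, one of its membrane anchors and one of the genes with an NRF1 motif in the promoter, was at -0.43, -0.24 and -0.41 in CD27+ CMP, against 0.09, -0.01 and 0.47 in CD27- CMP. It was at -0.06, 0.01 and -0.06 in GMP, against 0.47, 0.50 and 0.47 in MEP. It was lowest in CD27+ CMP and high and even in MEP, with differences of -0.54 (SE 0.11, adjusted p = 0.00515, or 0.0657 when only these groups were fitted) and -0.52 (SE 0.11, adjusted p = 0.00663). In CD27+ CMP against MEP the difference was -0.84 (adjusted p = 0.000308).

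Sdhb, the iron-sulphur subunit, was at -0.69, -0.77 and -0.21 in GMP, against -0.06, 0.10 and 0.31 in MEP, a difference of -0.67 (SE 0.16, adjusted p = 0.0136). In CD27+ CMP it was at -0.34, 0.06 and -0.24, against 0.14, 0.20 and 0.12 in CD27- CMP, and the difference of -0.32 (adjusted p = 0.219) did not pass. Sdha, the flavin subunit, did not pass: it was between 0.00 and -0.03 in CD27+ CMP and at -0.15, 0.49 and 1.49 in CD27- CMP. The difference was -0.62 by this probe set, while the other probe sets of Sdha gave -0.01, -0.05 and -0.01. Sdhc, the other membrane anchor, differed by -0.12 and -0.38 and did not pass.

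In complex III, which passes electrons from ubiquinol to cytochrome c, 2 small subunits had the largest differences. Uqcr11 was at -0.48, -0.24 and -0.80 in CD27+ CMP, against 0.51, 0.16 and 0.39 in CD27- CMP. It was at -0.31, -0.33 and -0.14 in GMP, against 0.14, 0.30 and 0.17 in MEP. The groups did not overlap, and the differences were -0.86 (SE 0.14, adjusted p = 0.00159) and -0.46 (SE 0.14, adjusted p = 0.0408, or 0.0729 with the replicate block). Uqcr10 was at -1.14, -0.28 and -1.27 in CD27+ CMP, against 0.65, 0.07 and 0.04 in CD27- CMP. Its difference of -1.15 (SE 0.29, adjusted p = 0.0176) was the lowest of complex III, but CD27+ CMP replicate 2 stood well above the other 2 arrays, and the call was lost without replicate 1 or 3 of CD27+ CMP or replicate 1 of CD27- CMP. In GMP against MEP it differed by -0.73 (adjusted p = 0.113).

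Uqcrfs1, the Rieske iron-sulphur protein, fell by 0.28 (SE 0.08, adjusted p = 0.0392) in CD27+ against CD27- CMP and by 0.36 (SE 0.08, adjusted p = 0.0108) in GMP against MEP on the log2 scale. The core proteins Uqcrc1 and Uqcrc2 differed by -0.49 (adjusted p = 0.178) and -0.37 (adjusted p = 0.0995) in CD27+ against CD27- CMP and did not pass, while Uqcrc2 passed in CD27+ CMP against MEP at -0.58 (adjusted p = 0.0133). Uqcrc2 differed in GMP against MEP by -0.37 (adjusted p = 0.097, or 0.0104 with the replicate block). Uqcrb went the other way in GMP, where it was at 0.32, 0.49 and 0.18, against -0.16, -0.19 and -0.05 in CD27- CMP, a difference of 0.46 (SE 0.09, adjusted p = 0.00569). A second probe set of Uqcrb gave -0.12 in that comparison, so the rise rests on 1 probe set.

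Complex IV held both the gene with the largest rise and the gene with the largest fall, each a tissue isoform of a subunit that most cells make from another gene. Cox6a2, the isoform of subunit 6A typical of heart and skeletal muscle, was at 3.79, 5.33 and 4.21 in CD27+ CMP, against 0.06, -0.06 and -0.06 in CD27- CMP. It was at 0.53, 0.03 and -0.04 in GMP, against -0.04, -0.03 and -0.06 in MEP. The gene was high on all 3 CD27+ CMP arrays and near its median on the arrays of the other groups. It was 22.1-fold higher in CD27+ than in CD27- CMP (log2 difference 4.46, SE 0.33, adjusted p = 9.49e-06), 4.49 higher on the log2 scale in CD27+ CMP than in MEP (adjusted p = 7.94e-06) and 4.27 higher than in GMP (adjusted p = 0.00012). In GMP against MEP it differed by 0.22 (95% interval -0.54 to 0.97, adjusted p = 0.624).

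A second probe set of Cox6a2 gave 0.05, 3.87 and 1.63 in CD27+ CMP, against -0.01, -0.02 and -0.04 in CD27- CMP, a difference of 1.88 that did not pass over all probe sets (adjusted p = 0.158). It was high on 2 of the 3 CD27+ CMP arrays and at its median on replicate 1. Because the base level of the probe sets is lost, and the authors' method draws weak signals toward a background, the fold is uncertain in size. Cox6a1, the isoform of the same subunit made in most tissues and with the NRF1 motif in its printed promoter, moved the other way: it was at -0.39, -0.15 and -0.38 in CD27+ CMP, against 0.22, 0.06 and 0.02 in CD27- CMP. It fell by 0.41 (SE 0.12, adjusted p = 0.0345) and, in GMP against MEP, by 0.37 (SE 0.12, adjusted p = 0.0487) on the log2 scale. Both calls of Cox6a1 were close to the threshold and were lost under 11 and 16 of 20 alternatives, array centring and quantile normalization among them. Its second probe set, which varied less between arrays, passed in limma in both comparisons. It gave -0.31 (adjusted p = 0.000761 over all probe sets) and -0.175 (adjusted p = 0.02).

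Cox6b2, the testis isoform of subunit 6B, whose printed promoter held no match to the 4 motifs, was at -0.98, -0.97 and -1.02 in CD27+ CMP, against 1.43, 0.88 and 1.59 in CD27- CMP. It was at -1.92, -2.49 and -0.72 in GMP, against 0.72, 1.10 and 1.95 in MEP. The 2 lower groups and the 2 higher groups were far apart, with a difference of -2.29 (SE 0.45, adjusted p = 0.00474, 4.88-fold lower) in CD27+ against CD27- CMP and of -2.97 (SE 0.45, adjusted p = 0.000929, 7.82-fold lower) in GMP against MEP. Its general counterpart Cox6b1 differed by -0.32 (95% interval -0.70 to 0.06) and -0.09 (-0.47 to 0.28) and did not pass.

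**Figure D4:**
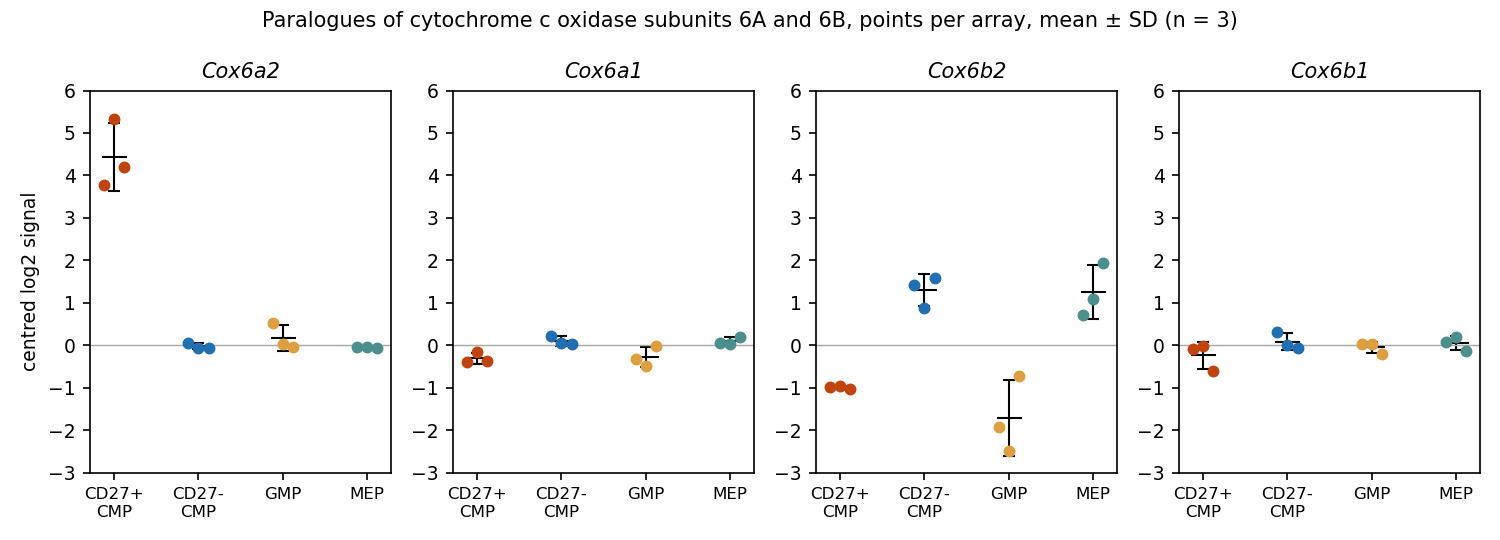
Centred log2 signal on each array (points) with group mean and SD (bars, n = 3) of Cox6a2, Cox6a1, Cox6b2 and Cox6b1 in CD27+ CMP, CD27- CMP, GMP and MEP. Cox6a2 lies between 3.79 and 5.33 in CD27+ CMP and at or below 0.53 elsewhere, and Cox6b2 is below 0 on all CD27+ CMP and GMP arrays and above 0 on all CD27- CMP and MEP arrays.

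Ndufa4, once counted with complex I and now known as a subunit of complex IV, was the other gene that rose. It was at 0.33, 0.32 and 0.24 in CD27+ CMP, against -0.19, -0.30 and -0.16 in CD27- CMP. It was at 0.27, 0.05 and 0.29 in GMP, against -0.05, -0.10 and -0.17 in MEP. It rose by 0.51 (SE 0.07, adjusted p = 0.000405) and by 0.31 (SE 0.07, adjusted p = 0.00787) on the log2 scale, with no overlap, and its single call lost in these comparisons was in GMP against MEP with genes of small range left out (adjusted p = 0.0901). Its paralogue Ndufa4l2 did not pass, at 0.00 and -0.01, and was flat on all 12 arrays.

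Cox7a2, the general isoform of subunit 7A, was at -0.37, -0.26 and -0.38 in CD27+ CMP, against 0.05, 0.03 and 0.06 in CD27- CMP. It was at -0.17, -0.12 and 0.00 in GMP, against 0.12, 0.00 and 0.20 in MEP. CD27+ CMP was the lowest group, with differences of -0.38 (SE 0.06, adjusted p = 0.001) against CD27- CMP and -0.24 (adjusted p = 0.0489, or 0.0713 with the replicate number of CD27+ CMP and GMP as a block) against GMP, and GMP was lower than MEP at -0.20 (adjusted p = 0.0319). Its relative Cox7a2l is known as a factor of supercomplexes, which join complexes III and IV, but its function in these mice was not tested. Cox7a2l was at 0.29, 0.31 and 0.10 in CD27+ CMP and 0.12, 0.32 and 0.08 in CD27- CMP. In GMP it was at -0.08, -0.44 and -0.13, and in MEP at -0.13, -0.11 and -0.13. CD27+ CMP was higher than GMP by 0.45 (SE 0.10, adjusted p = 0.0315) and than MEP by 0.36 (adjusted p = 0.0272), and the difference of GMP from CD27- CMP was -0.39 (adjusted p = 0.0192). In CD27- CMP against MEP the difference of 0.30 did not pass (SE 0.10, adjusted p = 0.595).

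Cox7a1, the muscle isoform of subunit 7A, was at 0.42, 1.10 and -0.02 in CD27+ CMP, against 0.00, -0.02 and 0.00 in CD27- CMP. It was at -0.04, 0.98 and 0.21 in GMP, against 0.04, 0.00 and -0.03 in MEP. Single arrays of CD27+ CMP and GMP were high while others were at the median, and neither difference passed (0.51, adjusted p = 0.31, and 0.38, adjusted p = 0.378). The other isoforms did not pass in either comparison: Cox4i1 and Cox4i2 differed by -0.09 and -0.09 in CD27+ against CD27- CMP, and Cox8a, Cox8b and Cox8c by -0.15, -0.08 and -0.36. Nor did Cox7b2 (-0.02) or the single genes Cox5a (0.27), Cox5b (-0.36), Cox6c (-0.16) and Cox7c (-0.25). Cox7c had an SD of 0.68 within CD27+ CMP.

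ATP synthase consists of a catalytic F1 head, a proton-driven ring of c subunits and stalks that join them, and few of its genes differed. Atp5g1, 1 of 3 genes for the same c subunit, was at -0.76, -0.41 and -0.51 in CD27+ CMP, against 0.16, 0.16 and 0.24 in CD27- CMP. It was at -0.57, -0.40 and -0.04 in GMP, against 0.04, 0.18 and 0.43 in MEP. It fell by 0.75 (SE 0.15, adjusted p = 0.00518) and by 0.56 (SE 0.15, adjusted p = 0.023) on the log2 scale, without overlap. A second probe set of Atp5g1 gave -0.09 and -0.36 and did not pass in limma (adjusted p = 0.751 and 0.159 over all probe sets). The other genes of the c subunit did not pass: Atp5g2 differed by 0.01 (95% interval -0.47 to 0.48) and -0.37 (adjusted p = 0.25, or 0.0154 with the replicate block), and Atp5g3 by -0.21 and -0.18. Atp5k, a subunit of the membrane part that joins ATP synthase dimers, fell by 0.50 (SE 0.12, adjusted p = 0.0158) in CD27+ against CD27- CMP and differed by -0.18 (adjusted p = 0.324) in GMP against MEP. The catalytic head did not pass: Atp5b differed by -0.15 and -0.29, Atp5c1 by 0.10 and -0.21, and Atp5a1 by -0.67 (95% interval -1.53 to 0.19) and -0.07. Atp5a1 was uneven in CD27- CMP, at 1.38, 1.18 and -0.22. Its other probe sets gave 0.01 and -0.11 in CD27+ against CD27- CMP and -0.04 and -0.09 in GMP against MEP, and none passed.

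The group means compared in CD27+ against CD27- CMP and in GMP against MEP share no arrays. The spread of each gene was estimated from all 12 arrays, however, so the calls of these comparisons are not independent. Most genes called lower in GMP were called lower in CD27+ CMP too. Of the 24 genes lower in CD27+ CMP and the 18 lower in GMP, 16 were lower in both, which is 66.7% of the first list and 88.9% of the second. Over all genes 1459 were lower in both, which is 77.8% and 70.7% of those lists, so an overlap of this order was general on these arrays. They are the complex I subunits Ndufa5, Ndufa10, Ndufa12, Ndufb9, Ndufs1 and Ndufv2, the assembly factors Ndufaf1, Ndufaf4 and Ndufaf7, Sdhd, Uqcr11, Uqcrfs1, Cox6a1, Cox6b2, Cox7a2 and Atp5g1. Ndufa4 rose in both. The GMP against MEP calls of Atp5g1, Cox6a1, Cox7a2, Ndufa10, Ndufa12, Ndufaf4, Ndufs7, Sdhb and Uqcr11 were each lost when 1 or another single array of GMP or MEP was left out, with the largest adjusted p between 0.0627 (Sdhb) and 0.252 (Cox7a2) over the alternatives. In CD27+ against CD27- CMP the call of Uqcrfs1 was lost under 12 of 20 alternatives, quantile normalization, array centring and the loss of any single CD27- CMP array among them, with adjusted p up to 0.148. That of Atp5k was lost under 2, without CD27+ CMP replicate 3 and when only these groups were fitted, with adjusted p up to 0.0862. The sign agreed for 74 of the 90 genes, and the differences had a Pearson correlation of 0.586 and a Spearman correlation of 0.697 across the genes, or 0.81 (Pearson) over the 89 genes without Cox6a2. The share with the same sign was 82.2%, against 86.7% of all genes, and over all genes the correlations were 0.91 (Pearson) and 0.79 (Spearman). The genes are not independent replicates, and each point pairs 2 differences from a single normalisation.

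**Figure D5:**
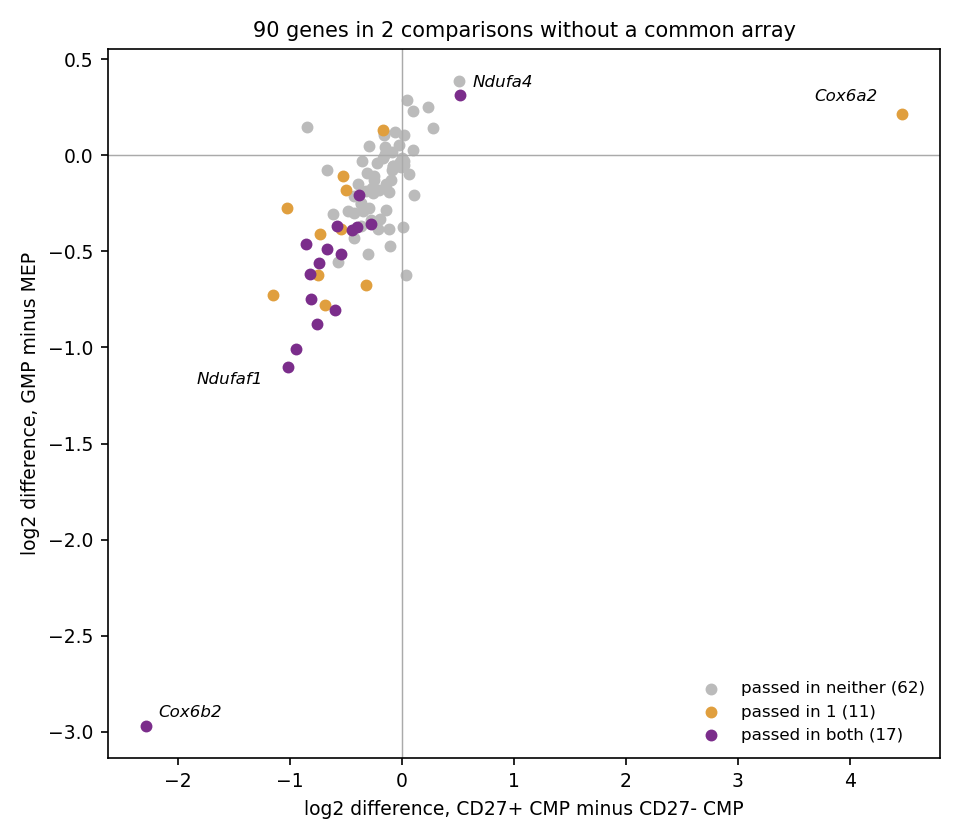
Log2 difference of each of the 90 genes in CD27+ CMP minus CD27- CMP (x axis) and GMP minus MEP (y axis); colours give whether the gene passed at an adjusted p under 0.05 in both comparisons (17), in 1 (11) or in neither (62). The points run from lower left to upper right, and Cox6a2 lies at 4.46 on the x axis and 0.22 on the y axis.

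Probe sets of a gene did not always give the same call. Of the 15 genes called in CD27+ against CD27- CMP with more than 1 probe set, 7 had another that passed over all probe sets, and of the 11 such genes in GMP against MEP, 5 had. Conversely, another probe set passed and was lower for 5 genes not called in CD27+ against CD27- CMP (Atp5h, Ndufb2, Ndufc1, Ndufs7 and Ndufv1) and for 3 not called in GMP against MEP (Ndufab1, Ndufc2 and Uqcrc2). Probe sets of Ndufs4, not called in either, differed in direction. In CD27+ against CD27- CMP the chosen one gave -0.85 and another 0.68 (adjusted p = 0.0767 and 0.0513 over all probe sets). In GMP against CD27- CMP the chosen one gave -0.06, and the other passed at 0.99 (adjusted p = 0.00793).

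The difference between these 2 differences was tested in the same limma fit. A single gene of the 90 passed, Cox6a2, at 4.25 (SE 0.47, adjusted p = 0.00224), where 2.06% of all genes passed. Cox6b2, for example, differed by 0.68 (SE 0.63, adjusted p = 0.982) between the comparisons. Ndufb3 was near the threshold at -0.30 (SE 0.07, adjusted p = 0.0913). Genes called in 1 comparison alone, such as Uqcr10, Ndufaf8 and Sdhb, are therefore not shown to differ between them.

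The crossed comparisons, which share arrays with those above, gave like counts. In CD27+ CMP against MEP, 23 genes were lower and 3 higher (12.9% and 11.9% of all genes), the 3 being Cox6a2, Ndufa4 and Cox7a2l. In GMP against CD27- CMP, 16 were lower and 3 higher (10.2% and 12.1% of all genes), the 3 being Ndufa4, Ndufb3 and Uqcrb. In CD27+ CMP against GMP, 2 were higher, Cox6a2 and Cox7a2l, and 2 lower, Ndufb3 and Cox7a2 (2.59% and 2.65% of all genes), and the median was -0.02. In CD27- CMP against MEP limma called 0 of the 90 genes, with 0.0165% of all genes called in each direction, and 6 of the 90 had an unadjusted p under 0.05. Over all 4 groups, an F test called 30 of the 90 genes (33.3%), against 26.8% of all genes.

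Genes that supply or build the chain, chosen by function and outside the name rule, also had more lower than higher calls. Of all genes, 10.3% were lower and 12.1% higher in CD27+ against CD27- CMP, and 11.3% and 11.5% in GMP against MEP. Of 8 other chain genes measured, 3 were lower in CD27+ than in CD27- CMP and 2 in GMP than in MEP, with 0 higher: Cyc1, the cytochrome of complex III, fell by 0.80 (SE 0.14, adjusted p = 0.00265) and 0.60 (SE 0.14, adjusted p = 0.0124), and Atpif1, the inhibitor of ATP synthase, fell by 1.76 (SE 0.35, adjusted p = 0.00544) and 1.85 (SE 0.35, adjusted p = 0.00403). Of 37 assembly factors of other kinds, 11 and 10 were lower and 0 higher, with medians of -0.475 in both comparisons. Cox11, a copper chaperone of complex IV, fell by 1.31 (adjusted p = 0.00129) and 1.39 (adjusted p = 0.000845), and Sco2, another, by 1.23 (adjusted p = 0.0112) in GMP against MEP. Of 15 genes of ubiquinone synthesis and electron entry, 7 and 5 were lower, and Etfb alone was higher, in GMP against MEP at 1.05 (adjusted p = 0.0384). Coq3, a methyltransferase of ubiquinone synthesis, fell by 1.64 (adjusted p = 3.31e-05) and 1.15 (adjusted p = 0.000319).

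Of 17 genes of the citric acid cycle and pyruvate dehydrogenase, 4 were lower and 1 higher in each comparison. Idh2, the NADP-dependent isocitrate dehydrogenase, was the gene that rose, by 1.62 (SE 0.10, adjusted p = 2.58e-06) in CD27+ against CD27- CMP and by 1.68 (SE 0.10, adjusted p = 1.76e-06) in GMP against MEP. Citrate synthase, Cs, fell by 0.60 (adjusted p = 0.000623) and 0.57 (adjusted p = 0.000805), and Pdhx, a structural part of pyruvate dehydrogenase, by 1.02 (adjusted p = 4.83e-05) and 0.90 (adjusted p = 9.61e-05). Of 17 regulators of mitochondrial genes, 5 and 4 were lower and 2 were higher in each, the last a share near that of all genes. Nrf1 fell by 0.61 (adjusted p = 0.0339) and 0.93 (adjusted p = 0.00366), Tfb1m, a mitochondrial ribosomal RNA methyltransferase, by 0.79 (adjusted p = 0.00311) and 0.86 (adjusted p = 0.0018), and Pprc1, a coactivator, by 0.78 (adjusted p = 0.00323) and 0.94 (adjusted p = 0.000973). Hif1a, the oxygen-regulated factor, rose by 1.27 (adjusted p = 0.00465) and 1.72 (adjusted p = 0.000698), and Gabpb1 rose by 1.57 (adjusted p = 6.77e-05) and 0.79 (adjusted p = 0.00526).

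Lineage markers moved with the same comparisons and by far more. Of 10 granulocyte-monocyte markers, all were higher in CD27+ than in CD27- CMP and in GMP than in MEP, with medians of 5.44 and 7.52. Of 10 erythroid markers measured, 7 were lower in each, with medians of -6.91 and -7.14. The median of the erythroid list lay between -3.72 and -3.25 on CD27+ CMP arrays, against 2.88 to 3.02 on CD27- CMP arrays, and between -3.89 and -2.79 on GMP arrays, against 3.14 to 3.30 on MEP arrays. Megakaryocyte markers were lower for 2 of 6 in both, with medians of -1.27 and -1.28. Their list median lay between -0.39 and 0.00 on CD27+ CMP arrays, against 0.45 to 2.53 on CD27- CMP arrays, and between -1.67 and -0.52 on GMP arrays, against 0.10 to 1.20 on MEP arrays. Mast cell and basophil markers were higher in 4 of 5 cases in both comparisons. Mature B cell markers were higher for 1 of 4 in both, mature T and NK cell markers for 2 of 6 and 1 of 6, and the list medians of both kinds lay between -0.05 and 0.07 on every array. Stromal and endothelial markers were higher for 2 of 5 in both, with list medians between -0.05 and 0.17. The part of these cell mixtures in the values of the respiratory chain genes was not tested.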

How the data were processed

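The authors deposited log2 values of 45037 probe sets on 12 arrays, which the submitters' processing notes credit to GCRMA. Neither its version nor the log base is given in the sources used here, and the values were read as log2. Each probe set is centred on its median over the arrays, so absolute signal is lost and no detection filter was possible. GCRMA draws weak signals toward a background, which makes folds near background uncertain. Of the probe sets, 34945 have 1 gene symbol (18193 genes), 932 have several and 9160 none, and probe sets with several or no symbols were left out. The members had 179 probe sets, with 10 more left out for their several symbols. Of the 90 genes, 39 had 1 probe set, and 9 had a range under 0.5 log2 over the arrays.

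Tests used limma 3.58.1 under R 4.3.3 (lmFit and eBayes, default settings, prior degrees of freedom 0.992), with all 12 arrays in 1 fit and 1 mean per group. P-values were two-sided and adjusted by Benjamini-Hochberg over the genes. The script was tested on simulated data. The number of arrays limits the precision, and the median SE of a difference was 0.144 log2. Deviations of same-numbered arrays from their group means correlated at 0.275 to 0.576 between GMP and MEP and at 0.226 to 0.572 between CD27+ CMP and GMP (3 pairs each), so the numbers were taken to pair these groups, from the data and not from the labels. In each of the other 4 comparisons at least 1 pair correlated under 0.1, with MEP and CD27+ CMP closest to that cut at 0.092 to 0.402. The median was 0.115 over all 18 same-numbered pairs and -0.0695 over the 36 others. Those others ran from -0.494 to 0.451, so correlations of this size also occurred without a shared number. The replicate block of the report is the number as a fixed effect within the groups compared alone, in the fit of all 12 arrays.

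The members, the gene lists and the tests were chosen with earlier results of these data known. Genes named with values were, by complex, up to 6 called in each direction with the largest difference in CD27+ against CD27- CMP and in GMP against MEP, isoform pairs, catalytic subunits, and genes whose probe sets disagree. From each list of other genes, up to 4 were named for each of these comparisons. Alternatives covered normalization, the choice of probe set, a range filter, array weights, robust moderation, the replicate block, fits of the compared groups alone and leaving out each array. Promoters were searched for 4 motifs, of which the shorter NRF1 spelling was chosen after the result with a longer one had been seen.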

Additional observations from a re-analysis of the deposited data

Results flagged for a closer look

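Cox6a2 stood out because its difference between CD27+ and CD27- CMP was unlike its difference between GMP and MEP, and the test of the difference itself passed. The log2 differences were 4.46 (SE 0.33) in CD27+ against CD27- CMP and 0.22 (SE 0.33) in GMP against MEP, and they differed by 4.25 (SE 0.47, limma adjusted p = 0.00224). All 3 CD27+ CMP arrays were above the CD27- CMP arrays. A second probe set of the gene was high on CD27+ CMP replicates 2 and 3, at 3.87 and 1.63, and at 0.05 on replicate 1. With the mean of the probe sets of a gene in place of the chosen one, 0 genes of the 90 passed this test.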

How the results depend on the processing

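Of the 26 calls in CD27+ against CD27- CMP, 13 held under all 20 alternatives, as did 8 of the 19 in GMP against MEP, and 0 calls of either comparison changed sign. Counts of lower genes in CD27+ against CD27- CMP, 24 as reported, ran from 13 to 29 when 1 array was left out, with 15 without CD27+ CMP replicate 1 and 13 without replicate 3. In GMP against MEP, 18 as reported, they ran from 9 to 21, with 9 without GMP replicate 1 and 11 without MEP replicate 2 or 3. In GMP against CD27- CMP, 16 as reported, they ran from 11 to 27, with 27 without GMP replicate 3. Array weights could not be fitted on all probe sets as planned. Weights estimated on probe sets that span 0.5 log2 or more, chosen after seeing the data, gave 28 lower genes between GMP and MEP, 35 between CD27+ CMP and MEP and 32 in GMP against CD27- CMP. They also gave 5 lower in CD27+ CMP against GMP, 2 higher and 1 lower in CD27- CMP against MEP, 3 higher in GMP against MEP and 3 in the difference of the differences. The replicate block over all 4 groups gave 23 lower genes in CD27+ against CD27- CMP and 18 in GMP against MEP, where it ended the calls of Cox6a1 (adjusted p = 0.081) and Uqcr11 (adjusted p = 0.077), and 1 higher and 1 lower in CD27+ CMP against GMP. The block within GMP and MEP alone gave 23 lower and 2 higher genes, ended the calls of Ndufa12 and Uqcr11 and kept that of Cox6a1 (adjusted p = 0.0202), and the block within CD27+ CMP and GMP alone gave 1 lower gene. These blocks within a pair of groups were chosen after seeing the data. Shares of all genes were not counted under the alternatives, so these counts have no background beside them.

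Small counts moved under other settings. In CD27+ CMP against GMP, 2 higher genes became 1 with the mean of probe sets, only the groups compared, quantile normalization or the range filter, and ran from 1 to 2 with 1 array left out. The 2 lower genes became 1 with centred arrays, every probe set, the mean of probe sets, only the groups compared or robust moderation, 0 with the range filter, and 1 to 3 with 1 array left out. In GMP against MEP the 1 higher gene became 2 with quantile normalization, 0 with the range filter and 1 to 2 with 1 array left out. Leaving out 1 array gave 0 to 1 lower genes in CD27- CMP against MEP and 1 to 2 in the difference of the differences, which was 2 with quantile normalization and 0 with the mean of probe sets.

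Medians of whole complexes kept their sign under every alternative, and 234 of 252 values moved by less than the spread between arrays. The median of complex II in CD27+ against CD27- CMP became -0.25 with probe sets averaged and -0.21 with every probe set. That of complex IV became -0.21 with the range filter in the same comparison, and in GMP against MEP -0.013 with quantile normalization, -0.023 with centred arrays, -0.095 with the range filter and -0.038 with array weights. With 1 array left out, medians in CD27+ against CD27- CMP ran from -0.40 to -0.25 for complex I subunits, -0.52 to -0.26 for complex II, -0.117 to -0.071 for complex IV and -0.17 to -0.07 for ATP synthase. In GMP against MEP they ran from -0.44 to -0.27 for complex III and -0.055 to -0.028 for complex IV. The cause of these moves was not tested. Without the C after the NRF1 motif, a spelling chosen after seeing the data, its share became 32.4% of members in place of 23.0%, 42.9% in place of 23.8% of the members lower in CD27+ against CD27- CMP and 28.8% in place of 23.1% of those not called.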
